A study of Mus musculus with 12 samples.

Results

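RNA was counted in 3 libraries of control 4T1 cells grown in collagen, which are 3 of the 12 libraries in the series, and the level of every gene in them is described here without a comparison between groups. The 3 were chosen by their label, with earlier results of these data known. They came from cells nucleofected with Cas9 and a control guide RNA. These cells were kept in collagen I gels with 2% serum and given no FGF ligand. 4T1 is a tumour line from a BALB/c mouse mammary carcinoma that spreads to lung and bone when put back into mice. The other 9 libraries, an ETV4 knockout and both genotypes with FGF10 and FGF2, were not used here. Per the labels' protocols, cells were seeded at 100000 per ml in droplets of 80 µl. Collagen was used at 1.2 mg/ml in some gels and at 2.4 mg/ml in others, and which of them a given library came from is not stated. Gels were digested with collagenase I at 300 U/ml for 10 min and, after pipetting, for a further 5 min, and the pellet was frozen before RNA was extracted and made into stranded polyA libraries. Nothing in the labels says that the replicates were separate cultures, so the spread between them may be technical, and nothing says whether the control cells were a pool or 1 clone.

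The mammary duct has an inner layer of luminal cells, which carry the keratins of simple epithelia, Krt8 and Krt18, and an outer basal layer of myoepithelial cells, which carry Krt5, Krt14 and smooth muscle proteins. Epcam and Cdh1 (E-cadherin) hold epithelial cells together, and Vim (vimentin) is the intermediate filament of mesenchymal cells. Carcinoma cells that have gone part of the way from an epithelial to a mesenchymal state, known as epithelial-mesenchymal transition or EMT, can carry both sets at once.

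The 3 libraries held 20253458, 20284549 and 19461155 counts in replicates 1, 2 and 3. The order of neighbouring genes is called settled between libraries only where the values of the 3 libraries do not overlap. Genes listed one after another without such a statement are not ranked. Levels within a gene are given as CPM, counts scaled to a library of 1000000, and levels between genes as TPM, which also divides by the gene's exon length. That length is the same in every library, so an order settled between libraries could still change with another choice of length. Of 30644 gene symbols with a gene model, 11165 (36.4%) reached 1 TPM in every library and are called expressed, and their median level was 27.9 TPM. Among protein-coding genes 10753 of 21929 (49.0%) were expressed, and among lincRNAs 193 of 5197 (3.71%). The 36.4% set beside gene lists below covers all gene types, so for lists of protein-coding genes 49.0% is the nearer level. Of all 31017 symbols, 14986 (48.3%) had no count in any of the 3 libraries. For a gene with no count in the 59999162 counts of the group, the expected count can still be up to about 3, or 0.0500 CPM. This approximate upper bound covers counting error only. Replicates correlated across expressed genes at a Pearson r between 0.994 and 0.995 of log2 TPM, a description over genes that are not independent. No pair was a duplicate, since chi-square per degree of freedom was 3.26 or higher. Between any pair, 2.60% to 2.73% of expressed genes differed by more than 1.5-fold. Replicates 1 and 3 lay at opposite ends by transcript length, with replicate 2 between them. Genes with under 1000 bases of exon had a median log2 deviation of -0.078, -0.0062 and 0.068 in replicates 1, 2 and 3, and genes over 5000 bases one of 0.031, 0.011 and -0.043. The part of this in the differences between replicates given below was not tested.

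Mean levels of expressed genes ran from 1.05 TPM to 14575 TPM for Eef1a1. Among the expressed genes, 2654 lay between 1 and 10 TPM, 6629 between 10 and 100, 1752 between 100 and 1000, and 130 at or above 1000 TPM. Those 130 genes held 32.1% of all TPM. The 10 most abundant genes by count took 4.48% ± 0.0644 of the counts (SD, n = 3), the 100 most abundant 17.4% ± 0.218, and the 1000 most abundant 50.8% ± 0.341. The most abundant gene by count, Eef1a1, had 10313, 10553 and 10500.4 CPM in replicates 1, 2 and 3, so no transcript dominated a library.

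**Figure D1:**
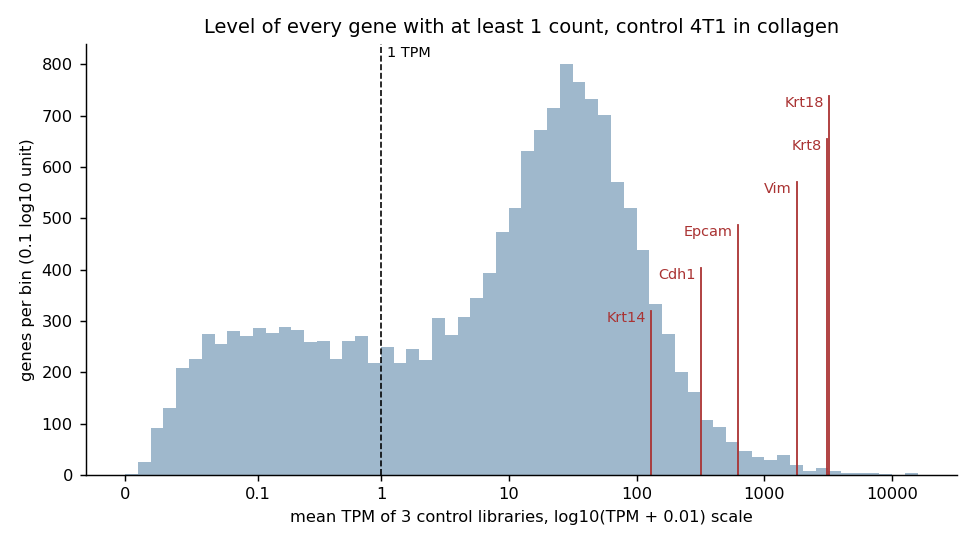
Histogram of the mean TPM of the 3 control libraries for every gene with at least 1 count, on a log10(TPM + 0.01) axis, with genes per bin of 0.1 log10 units on the vertical axis. The dashed line is 1 TPM and the red lines are the 6 lineage markers, which run from 129.95 TPM for Krt14 to 3223 TPM for Krt18, all to the right of the main peak of expressed genes.

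The genes of translation led the list. Eef1a1 (chr9:78478449-78489151), the elongation factor that brings aminoacyl-tRNA to the ribosome, was the most abundant transcript at 14535, 14761 and 14429.7 TPM in replicates 1, 2 and 3. The ribosomal stalk protein Rplp1 was at rank 3 with 12231, 12649.6 and 13875 TPM, lowest in replicate 1 and highest in replicate 3. Eef2, the factor that moves the ribosome along the message, stood at 3787 ± 53.01 TPM (SD, n = 3). Of 83 genes of cytosolic ribosomal proteins, 80 were expressed, 38 of them were among the 100 most abundant genes by TPM, and together they took 5.55%, 5.799% and 6.19% of the counts. Rps15, Rps3a1, Rpl23a and Rplp0, all of them ribosomal proteins, were also among the 20 most abundant, between 3956 and 6515 TPM. Eef1a1, the ribosomal proteins and Ptma have many processed pseudogenes, so the counting of reads that match several copies could shift their levels.

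The next genes were not of translation. Lgals1 (chr15:78926725-78930465), which encodes galectin-1, a secreted lectin that binds beta-galactosides, was second at 13458, 13413 and 13964 TPM. Its transcript is short: by CPM, without length, it stood at rank 7, and Eef1a1 at rank 1. Ptma (prothymosin alpha, a nuclear protein of growing cells) had 9354, 10252 and 10153 TPM. The calcium-binding proteins S100a11 and S100a6 had 9692 ± 246 and 6369 ± 399 TPM. Hsp90ab1, the constitutive cytosolic chaperone, was at 5768 ± 29.0 TPM, Actb at 5358 ± 44.0 TPM and Ftl1, the light chain of the iron store ferritin, at 3698 ± 133 TPM. In the first 20, 4 places were messages of the mitochondrial genome. These were mt-Cytb at 7179, 6989 and 6341 TPM, mt-Co1 at 6727 ± 434 TPM, mt-Nd1 at 5982 ± 418 TPM and mt-Nd2 at 4273 ± 394 TPM, and all 13 mitochondrially encoded protein genes together took 0.982%, 0.927% and 0.874% of the counts. The replicate with the lowest mitochondrial share, replicate 3, had the highest share of ribosomal protein counts. A further place was taken by a predicted gene, which is counted and not named.

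Promoter letters differed between genes of different levels, and a short set is printed to show one such difference, the TATA box, an AT-rich element shortly before the start of some genes where the general transcription machinery binds. Windows of 300 bases, from 250 before to 50 after the start, came from RefSeq (GRCm38.p6), and 16313 genes of the count table had exactly 1 window. The letters TATAAA, on either strand, were in 13.995% of all these windows, in 21.8% of the windows of genes with no count, in 6.35% of those of expressed genes, and in 16.9% (13 of 77) of those of genes at a mean of 1000 TPM or more. Within the 100 bases before the start and on the gene's own strand, TATAAA occurred in 4.81% of all 16313 genes, in 7.82% (554 of 7085) of genes with no count, in 1.77% of expressed genes, in 3.71% of genes at 100 TPM or more and in 7.79% (6 of 77) of genes at 1000 TPM or more. Its share was thus about equal among the most abundant genes and those with no count. Those 6 are Eef2, Ppia, H3f3b, Vim, Anxa1 and Anxa2. The 100 bases before the start are shown for 4 of them, with TATAAA in capitals, and for Krt8 and Krt18, which hold no match in this stretch; each is 5′ to 3′ on the gene's strand. The start is that of RefSeq. Among these stretches only that of Eef2 lies wholly outside the GENCODE gene model used for lengths and coordinates, and the others lie inside the model or across its outer end.
Eef2 (chr10:81176531-81176630, plus strand, 3787 TPM): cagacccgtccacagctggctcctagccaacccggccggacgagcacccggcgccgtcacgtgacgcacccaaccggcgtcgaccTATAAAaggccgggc
Ppia (chr11:6415767-6415866, plus strand, 3157 TPM): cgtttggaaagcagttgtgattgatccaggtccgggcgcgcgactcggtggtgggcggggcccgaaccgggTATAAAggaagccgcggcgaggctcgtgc
Vim (chr2:13574211-13574310, plus strand, 1799 TPM): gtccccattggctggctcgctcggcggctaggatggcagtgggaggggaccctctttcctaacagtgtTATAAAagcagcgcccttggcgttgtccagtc
Anxa1 (chr19:20390672-20390771, minus strand, 1186 TPM): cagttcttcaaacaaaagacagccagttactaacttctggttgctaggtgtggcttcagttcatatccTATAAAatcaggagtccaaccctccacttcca
Krt8 (chr15:102004343-102004442, minus strand, 3108 TPM): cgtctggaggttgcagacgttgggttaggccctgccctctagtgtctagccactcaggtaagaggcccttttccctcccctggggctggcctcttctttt
Krt18 (chr15:102028116-102028215, plus strand, 3223 TPM): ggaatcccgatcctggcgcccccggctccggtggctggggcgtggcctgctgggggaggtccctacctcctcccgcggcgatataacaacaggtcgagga
In Vim and Anxa1 the first base of TATAAA lay 32 bases before the RefSeq start, in Ppia 29 and in Eef2 15. A match is a run of letters and was not tested for binding.

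Further motifs were searched in the same windows. GGGCGG, the GC box, was in 42.7% of all 300-base windows, in 18.1% of those of genes with no count and in 69.3% of those of expressed genes, on either strand. CCGGAAGT, a form of the ETS site, was in 4.92%, 1.06% and 9.80% of the same windows. TGANTCA, the AP-1 site, was in 7.47%, 10.0% and 4.34%, and in 11.7% (9 of 77) of those at 1000 TPM or more. These windows also differed in base composition, with a median GC content of 48% for genes with no count and 61.7% for expressed genes, whose part in the motif shares was not tested. Motifs were searched one at a time, so matches of different motifs can share bases.

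The luminal pair of keratins was among the 25 most abundant transcripts. Krt18 (chr15:102028180-102032027) was at 3274, 3208 and 3187 TPM in replicates 1, 2 and 3, and its partner Krt8 (chr15:101996698-102004482) at 3080.0, 3093 and 3151 TPM. The TPM values of Krt18 were all above those of Krt8 and neither set the libraries apart. By CPM, without length, the order was reversed, with a mean of 1751 for Krt8 and 1333 for Krt18. Vim had 1871, 1756 and 1769 TPM and was at rank 51. Epcam, at 634, 621 and 615 TPM, was below Vim in every library. Cdh1 followed at 334, 321 and 303 TPM, highest in replicate 1 and lowest in replicate 3. Krt14, the basal keratin, was the lowest of the 6 at 128, 128 and 133 TPM, still in the upper 4.55% of genes with a model. The values of no neighbouring pair among the 6 markers overlapped between libraries. These are bulk libraries, so whether a marker came from many cells or from fewer cells with more RNA each cannot be told apart, and Krt14 and Vim may or may not share cells with Krt8.

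**Figure D2:**
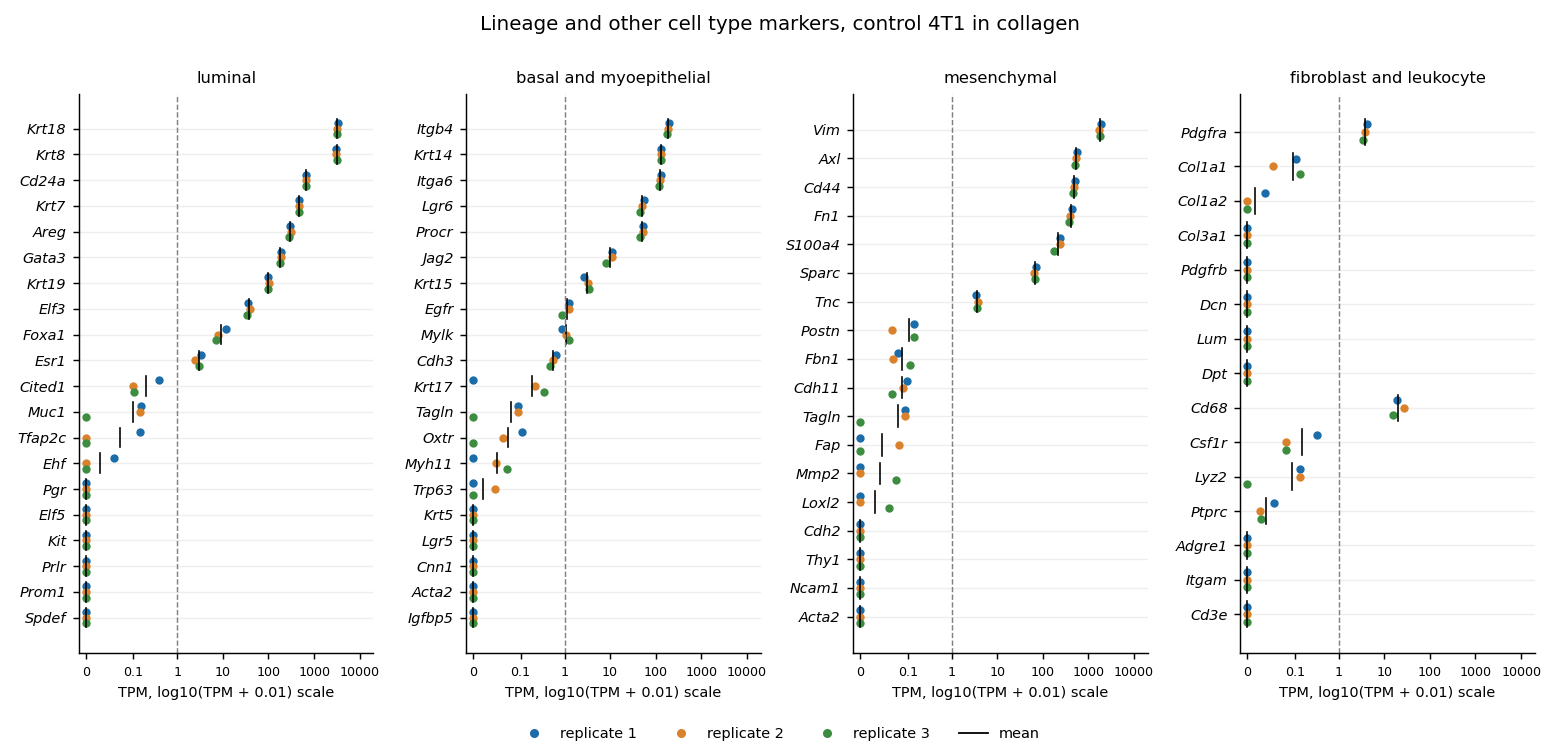
TPM of members of the luminal, basal and myoepithelial, mesenchymal, and fibroblast and leukocyte marker lists, on a log10(TPM + 0.01) axis, with 1 coloured point per control library, a black bar at the mean and a dashed line at 1 TPM. In each of the first 3 panels some members lie above 100 TPM in all libraries while others are at 0 in all of them, and in the right panel only Cd68 and Pdgfra pass the dashed line in every library.

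Luminal identity was uneven. Of 20 luminal genes, 10 (50%) were expressed, against 36.4% of all genes and 49.0% of protein-coding ones, and 6 had no count. Beside Krt8 and Krt18, the surface glycoprotein Cd24a was at 659 ± 5.29 TPM and the simple keratin Krt7 at 477 ± 1.87 TPM. Gata3, the transcription factor that maintains luminal cells, was at 185, 184 and 180.1 TPM, and Krt19 at 98.7 ± 4.95 TPM. The genes of hormone sensing were low or had no count. Foxa1, the factor that opens chromatin for the oestrogen receptor, had 11.7, 7.91 and 7.14 TPM, and Esr1, the oestrogen receptor itself, had 3.37, 2.48 and 2.99 TPM. Pgr (progesterone receptor) and Prlr (prolactin receptor) had no count in any library, nor had Elf5, the driver of the milk-secreting lineage, or Kit, Prom1 and Spdef.

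Of 20 basal and myoepithelial genes, 7 (35%) were expressed, near the 36.4% of all genes and below the 49.0% of protein-coding ones. No count was found for 5. Itgb4 and Itga6, which together form the integrin of hemidesmosomes, were at 189 ± 9.80 and 124 ± 6.83 TPM, and with Krt14 they were the most abundant of the list. The Wnt co-receptor Lgr6 (51.1 ± 4.76 TPM) and the protein C receptor Procr (50.5 ± 4.59 TPM, named after its values were seen) followed with overlapping values. Krt5, the usual partner of Krt14, had no count. Trp63, the regulator of basal cells, was at 0.00683 TPM and Krt17 at 0.187 TPM. Among the contractile genes, Acta2 and Cnn1 had no count, Myh11 was at 0.0230 TPM and the oxytocin receptor Oxtr at 0.0482 TPM. The contractile kinase Mylk was at 0.878, 1.08 and 1.23 TPM. Of 16 keratins and envelope genes of squamous epithelium, 3 were expressed, led by Krt16 at 21.1 ± 1.06 TPM and Krt80 at 14.1 ± 0.960 TPM, and 10 had no count, among them Krt1, Krt6a, Ivl and Lor.

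The transcripts of epithelial junctions were nearly all present, while proteins and assembled junctions were not tested. Of 31 genes of junctions and epithelial identity, 29 were expressed, with a median over the list of 81.5 TPM against 0.0271 TPM over all genes with a model. Ctnnb1 (beta-catenin, which links cadherin to actin and also serves Wnt signalling) led at 745 ± 10.5 TPM. The tight-junction claudins Cldn4 and Cldn7 were at 471 ± 4.61 and 336 ± 3.74 TPM, and the values of Cldn7 overlapped those of Cdh1. Esrp1, which sets epithelial splicing, was at 71.9 ± 2.46 TPM and Grhl2, an activator of Cdh1, at 30.0 ± 1.18 TPM. Cldn8 had no count and Cldn1, singled out after its values were seen, was at 0.0359 TPM.

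Of 18 mesenchymal genes, 7 were expressed, near the 36.4% of all genes and below the 49.0% of protein-coding ones. Another 7 had counts but did not reach 1 TPM in every library, and 4 had no count. The expressed ones ran from 1799 TPM for Vim to 3.59 TPM for Tnc, the latter named after its values were seen. Axl, the receptor kinase for Gas6, had 558, 529.7 and 514 TPM. Cd44, the hyaluronan receptor, had 478 ± 28.2 TPM and Fn1 (fibronectin) 408 ± 25.6 TPM. Cdh2 (N-cadherin), Thy1, Ncam1 and Acta2 had no count. Expressed neighbours in this list did not overlap in level.

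Of 12 genes on the list of EMT regulators, 7 (58.3%) were expressed, against 36.4% of all genes and 49.0% of protein-coding ones. Among them was Tgfbi (1.43 ± 0.146 TPM), which encodes a secreted matrix protein and is named after its values were seen. Sox9 was highest at 203, 193 and 192 TPM, then Twist1 at 74.4, 80.6 and 75.2 TPM and Snai1 at 45.5, 40.3 and 40.7 TPM. Foxc2 was at 28.2 ± 2.06 TPM. The paralogs differed widely within each family: Twist2 had no count, and Snai2 was at 0.0572 TPM. Zeb2 was at 5.58, 5.70 and 4.54 TPM, whereas Zeb1, whose product is a repressor of Cdh1, was at 0.282 TPM. Prrx1 had no count.

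Milk protein genes had no count, while several lipid genes were expressed. Csn2, Csn1s1, Csn1s2a, Wap, Lalba, Glycam1, Ltf and Olah had no count among the 16 genes of milk and secretion. Of the 16, 6 (37.5%) were expressed, near the 36.4% of all genes and below the 49.0% of protein-coding ones. Fasn (fatty acid synthase) led at 386 ± 15.4 TPM, followed by Mfge8, a protein of the milk fat globule, at 114 ± 5.44 TPM, the lipid droplet coat Plin2 at 89.1 ± 3.40 TPM and the protease inhibitor Slpi at 63.7 ± 7.51 TPM. Of 19 genes tied to mammary progenitors, 8 (42.1%) were expressed, against 36.4% of all genes and 49.0% of protein-coding ones. Itgb1, Cd44, Myc and Sox9 led them. Aldh1a3, Sox2, Sox10, Pou5f1, Nanog, Lgr5, Kit and Prom1 had no count.

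The listed markers of other cells were mostly close to nil. Over the lists for fibroblasts, leukocytes, endothelium, fat, nerve and muscle, 3 of 45 genes (6.67%) were expressed and 28 had no count. Fibroblast genes summed to 10.07 to 12.05 CPM per library, most of it Pdgfra at 4.14, 3.81 and 3.35 TPM. Col3a1, Pdgfrb, Dcn, Lum and Dpt were at 0 and Col1a1 at 0.0887 TPM. Leukocyte genes summed to 5.91 to 9.81 CPM, most of it Cd68, a lysosomal glycoprotein, at 18.6, 26.7 and 15.7 TPM, with Ptprc at 0.0158 TPM and Adgre1, Itgam and Cd3e at 0. Endothelial genes summed to at most 0.771 CPM, with Kdr, Tek, Emcn and Cldn5 at 0, and fat genes to at most 0.0986 CPM, with Adipoq, Plin1 and Lep at 0. Eno2, a glycolytic enzyme used as a neural marker, was the remaining expressed gene at 2.99 ± 0.203 TPM, while Chga, Rbfox3, Olig2 and Snap25 were at 0. Muscle genes summed to at most 2.26 CPM, all of it Myh1 at 0.737, 0.893 and 1.22 TPM, with Myod1, Myog, Des, Ckm and Actn2 at 0. All 6 lineage markers of the line were thus far above these listed genes, of which none exceeded a mean of 20.3 TPM. Some genes outside these lists that such cells also carry were not near nil. Eng and Flt1 of endothelium had means of 35.0 and 18.7 TPM, and Itgb2 and Cxcr3 of leukocytes 20.2 and 35.8 TPM. S100a4 and Sparc of fibroblasts had 216 and 66.5 TPM. They were chosen here after their values were seen.

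The cells carried the transcripts of proliferation. All 25 genes of S phase and all 25 of G2 and M phase were expressed, against 36.4% of all genes. The list medians were 88.3 and 115 TPM, against 0.0271 TPM over all genes with a model. Such shares reflect the choice of list members as well as the cells. Pcna, the sliding clamp of replication, was at 607, 594 and 636 TPM, and Mcm5, a part of the replicative helicase, at 314 ± 3.43 TPM. Cdc20, which activates the anaphase-promoting complex, was at 316, 316 and 326 TPM and Top2a at 307 ± 11.8 TPM. Of 15 cyclin D, CDK and inhibitor genes, 12 (80%) were expressed. Ccnd1 (cyclin D1) was the highest at 1336, 1346 and 1364 TPM, followed by its partner Cdk4 at 409 ± 11.5 TPM. Among the inhibitors Cdkn2c and Cdkn1b had 242 ± 8.54 and 155 ± 5.28 TPM. The inhibitors Cdkn2a, Cdkn2b and Cdkn1c had no count in any library.

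Metabolic and stress genes were abundant too. Of 26 glycolysis genes, 19 (73.1%) were expressed, against 36.4% of all genes. Pkm (pyruvate kinase) led at 2268 ± 24.0 TPM, or 3469 TPM with its longest transcript as the length, and Gapdh was at 865 ± 26.6 TPM. Eno1 was at 639 ± 20.3 TPM, or 1260 TPM with the longest transcript, and Pgk1 at 601 ± 15.3 TPM. Hk3, Pgam2 and Ldhc, the forms of blood cells, muscle and testis, had no count. Of 26 antioxidant genes, 24 (92.3%) were expressed and none was without a count. Ftl1 and Fth1, the chains of ferritin, led with 3698 and 2343 ± 31.5 TPM, followed by the thioredoxin Txn1 at 1467 ± 83.8 TPM and the lipid peroxidase Gpx4 at 733 ± 41.2 TPM. All 17 genes of MHC class I presentation were expressed, with B2m, the light chain, at 1462 ± 26.5 TPM and Calr, a chaperone of loading, at 860.0 ± 23.1 TPM. H2-D1 was at 728 ± 30.0 TPM, with the limit that class I heavy chains are near-identical copies between which reads may be split.

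Heat shock and immediate early genes, some of which are known to respond quickly to digestion and handling, were mostly high in all libraries. Of 20 heat shock and immediate early genes, 18 (90%) were expressed, against 36.4% of all genes. The summed level of the list was 10192, 10317 and 10258 CPM in replicates 1, 2 and 3. With the lists of cell cycle, glycolysis, antioxidant and MHC class I genes above, 140 of 154 distinct genes (90.9%) were expressed. These shares reflect the choice of list members as well as the cells. Ier3 was at 1979, 1872 and 1714 TPM. The chaperones Hsp90aa1 and Hspa8 were at 1468 ± 22.9 and 1412 ± 25.1 TPM, and Junb at 1361 ± 11.6 TPM. The gels were digested before freezing in every library, so the level in undisturbed gels cannot be told apart from that after harvest.

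Receptors set what a cell can sense. Of 251 distinct receptor genes in 8 lists, 133 (52.99%) were expressed, against 36.4% of all genes and 49.0% of protein-coding ones, and 64 had no count. The lists were drawn up from general knowledge, and a share above that of all genes is a property of the lists as well as of the cells.

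Among 58 receptor tyrosine kinases, 28 (48.3%) were expressed, near the 49.0% of protein-coding genes, against 36.4% of all genes. No count was found for 23. Axl, given above, was the highest and Epha2, an ephrin-A receptor, second at 354, 326 and 320.4 TPM. Ephb4, the receptor for ephrin-B2, had 150.1, 137 and 137 TPM, and the pseudokinases Ptk7 and Ryk, both Wnt co-receptors, had 106 ± 4.50 and 76.9 ± 1.60 TPM. Erbb2 was at 69.9, 69.5 and 64.5 TPM, the collagen receptors Ddr1 and Ddr2 at 62.6 ± 2.15 and 53.7 ± 2.36 TPM, and Met, the receptor for hepatocyte growth factor, at 57.2 ± 5.85 TPM. These values overlapped between neighbours from Erbb2 down to Ddr2, so their order is not settled. Kdr, Flt4, Pdgfrb, Kit, Ret, Alk and Erbb4 were among the genes with no count. Egfr, chosen after its values were seen, was at 1.23, 1.23 and 0.870 TPM.

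The FGF receptors bear on the rest of the series. Fgfr2 was the highest at 50.1, 46.6 and 44.2 TPM, or 81.5 TPM as the mean with its longest transcript as the length. Fgfr3 and Fgfr1, both outside the rule for named genes, had 5.96, 5.48 and 4.65 TPM and 5.15, 4.67 and 3.67 TPM. Fgfr4 had no count. Fgfr2 was therefore above each other FGF receptor in every library. These counts per gene do not separate the IIIb and IIIc splice forms, which decide which FGF ligands bind.

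**Figure D3:**
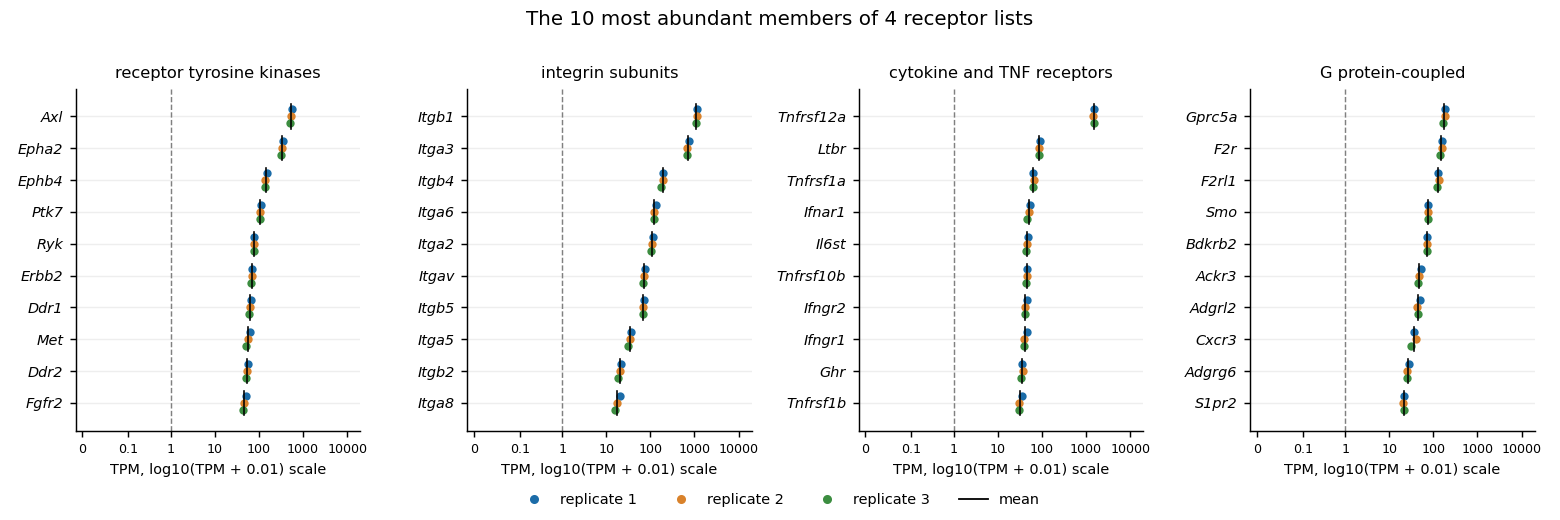
TPM of the 10 most abundant members of 4 receptor lists, receptor tyrosine kinases, integrin subunits, cytokine and TNF receptors, and G protein-coupled receptors, on a log10(TPM + 0.01) axis, with 1 coloured point per control library and a black bar at the mean. All of these members lie right of the dashed line at 1 TPM, and of those plotted Tnfrsf12a and Itgb1 alone exceed 1000 TPM.

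Integrins, which grip the matrix as pairs of an alpha and a beta subunit, were among the most abundant receptors. Of 26 subunits, 14 (53.8%) were expressed, against 36.4% of all genes and 49.0% of protein-coding ones. Itgb1, the common beta subunit, had 1133, 1112 and 1068 TPM and its laminin-binding partner Itga3 749.9, 691 and 664 TPM. Itga2, which with Itgb1 binds fibrillar collagen, had 116, 111 and 105 TPM. Itga1, Itga10 and Itga11, the other collagen-binding alpha subunits, were lower: Itga1 was at 5.00, 5.07 and 4.38 TPM and Itga10 at 1.04, 0.365 and 0.747 TPM, both chosen after their values were seen, and Itga11 had no count. Itgav and Itgb5, a vitronectin receptor, were at 72.3 ± 3.57 and 68.9 ± 1.81 TPM with overlapping values, and Itga5, the fibronectin receptor, at 33.8 ± 2.53 TPM. Itga6 was at 193 TPM rather than 124 with its longest transcript as the length. Itga4, Itga9, Itgal, Itgam and Itgad had no count.

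Of 41 interleukin, interferon and TNF receptors, 24 (58.5%) were expressed, against 36.4% of all genes and 49.0% of protein-coding ones. Tnfrsf12a, the receptor for TWEAK, was at rank 70 with 1523, 1475 and 1486 TPM, and the next, the lymphotoxin beta receptor Ltbr, at 88.4 ± 1.48 TPM. Tnfrsf1a was at 64.4 ± 3.00 TPM and the interferon receptors Ifnar1, Ifngr2 and Ifngr1 at 50.7, 42.5 and 42.3 TPM. Neighbours in the order overlapped from Ifnar1 down to Ifngr1, so these are not ranked. Il6st, the signalling chain shared by IL-6, LIF and their relatives, was at 45.8 ± 2.32 TPM. Csf3r, the receptor for the G-CSF that Csf3 encodes, had no count.

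Of 42 chemokine and other G protein-coupled receptors, 17 (40.5%) were expressed, near the 36.4% of all genes and below the 49.0% of protein-coding ones. Gprc5a, an orphan receptor of epithelia, was at 178 ± 12.4 TPM, and the thrombin receptor F2r and its relative F2rl1 at 153 ± 8.45 and 129 ± 6.85 TPM. Smo, the transducer of Hedgehog, was at 75.1 ± 1.08 TPM and the chemokine scavenger Ackr3 at 48.3 ± 4.28 TPM. Cxcr3 was at 35.6, 40.4 and 31.3 TPM. Ccr1, Ccr2 and Cxcr6 had no count.

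The receptors of secreted morphogens were expressed at moderate levels. Of 15 receptors of the TGF-beta, activin and BMP family, 10 were expressed, and Tgfbr2, Bmpr1a and Tgfbr1 led at 78.4 ± 3.93, 69.6 ± 3.56 and 58.4 ± 3.29 TPM. Of 21 Wnt receptors and co-receptors, 16 were expressed, with Fzd6 at 104 ± 1.44 TPM, Lrp5 at 82.3 ± 5.93 TPM, Fzd7 at 43.3 ± 1.71 TPM and Lrp6 at 25.5 ± 1.21 TPM, while Fzd8, Fzd10, Ror2 and Lgr5 had no count. Notch2 led the 4 Notch receptors at 41.5, 38.2 and 35.6 TPM, Notch1 was at 11.3, 9.75 and 8.09 TPM and Notch3 at 7.46, 4.74 and 6.57 TPM, and Notch4 at 0.209 TPM.

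Of 48 nuclear receptors, 23 (47.9%) were expressed, near the 49.0% of protein-coding genes, against 36.4% of all genes. No count was found for 16. Nr4a1, an orphan receptor induced by immediate early signals, was at 174, 174 and 151 TPM. The retinoic acid receptor Rarg was at 90.4 ± 0.507 TPM, Nr2f6 at 72.3 ± 5.16 TPM and the fatty acid sensor Ppard at 68.6 ± 0.830 TPM. Pgr was among those with no count.

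Of 409 distinct genes of secreted and matrix proteins in 12 lists, 185 (45.2%) were expressed. This is above the 36.4% of all genes but below the 49.0% of protein-coding ones. No count was found for 126, where 48.3% of all symbols had none. The 4T1 tumour is known for the neutrophils and myeloid cells that expand in mice that carry it, and G-CSF and neutrophil chemokines are the factors usually studied there.

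Among 40 cytokines and colony-stimulating factors, 22 (55%) were expressed, against 36.4% of all genes and 49.0% of protein-coding ones. Mif, macrophage migration inhibitory factor, was highest at 1490.1, 1531 and 1689 TPM, and Spp1 (osteopontin) had 1339, 1314 and 1195 TPM. Csf3 (G-CSF) had 517, 530.3 and 471 TPM, lowest in replicate 3. Lif was at 287, 277 and 245 TPM and Il23a at 82.0 ± 1.56 TPM. Tslp, Clcf1 and Il24 lay at 142, 135 and 123 TPM with overlapping values, and Csf1, the macrophage growth factor, at 70.2 ± 2.45 TPM. Il10, Il12b, Il17a, Ifng and Osm were among the 12 with no count.

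Of 32 chemokines, 12 (37.5%) were expressed, near the 36.4% of all genes and below the 49.0% of protein-coding ones, and 15 had no count. Cxcl1, which draws neutrophils through Cxcr2, was at 610.2, 619.9 and 545 TPM and Cxcl5, another ligand of that receptor, at 129, 129.9 and 117 TPM. The membrane-bound chemokines Cxcl16 and Cx3cl1 were at 193 ± 5.14 and 152 ± 11.9 TPM. Ccl5 was at 21.1, 29.2 and 31.7 TPM, lowest in replicate 1, and Cxcl2 was at 8.72, 7.23 and 5.53 TPM. Cxcl12, Cxcl9, Ccl3, Ccl7 and Ccl22 had no count.

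**Figure D4:**
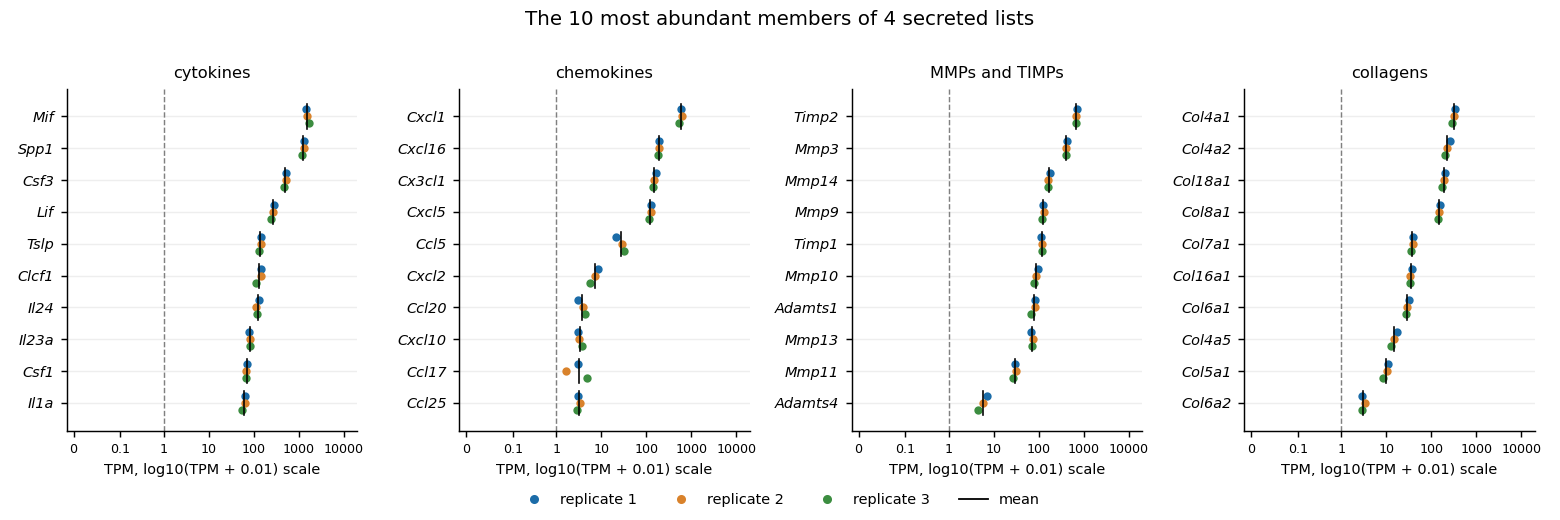
TPM of the 10 most abundant members of 4 secreted lists, cytokines, chemokines, metalloproteinases with their inhibitors, and collagens, on a log10(TPM + 0.01) axis, with 1 coloured point per control library, a black bar at the mean and a dashed line at 1 TPM. The chemokine panel falls from 592 TPM for Cxcl1 to 3.14 TPM for Ccl25, and the points of Ccl17 are the most spread.

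Growth factors of the EGF family were led by Areg. This ligand of the EGF receptor was at 289.7, 311 and 285 TPM, Hbegf at 139 ± 5.63 TPM and Tgfa at 66.3 ± 2.92 TPM, and 6 of 11 members were expressed. Btc was at 16.9 ± 1.52 TPM, and Ereg and Nrg3 had no count. Of 24 FGF ligands and binding proteins, 4 (16.7%) were expressed, against 36.4% of all genes and 49.0% of protein-coding ones. They are the binding proteins Fgfbp1 (26.2 ± 2.19 TPM) and Fgfbp3 (5.36 ± 0.255 TPM), Fgf11 (6.03 ± 0.618 TPM), which is not secreted, and Fgf20 (3.00, 4.303 and 5.87 TPM). Fgf2, which the FGF groups of the series received, was at 0.102 TPM, and Fgf10, their other ligand, had no count.

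Of 34 other growth factors, 19 were expressed. Hdgf was at 819 ± 26.7 TPM, the matricellular protein Cyr61 at 439 ± 19.6 TPM and Grn (progranulin) at 342 ± 22.4 TPM. Among the vascular factors Vegfb had 87.9 ± 5.73 TPM, Pdgfa 73.2 ± 4.14 TPM and Vegfa 46.6 ± 3.36 TPM. Hgf, the ligand of Met, and Gas6, a ligand of Axl, had no count, as had Igf2.

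Of 30 TGF-beta ligands and antagonists, 12 (40%) were expressed, near the 36.4% of all genes and below the 49.0% of protein-coding ones. The latent TGF-beta binding protein Ltbp3 led at 221 ± 12.7 TPM, and Bmp1, which is a procollagen protease despite its name, was at 191 ± 9.78 TPM. Inhba (activin A) had 92.3 ± 2.13 TPM, Tgfb3 71.2 ± 3.94 TPM and Tgfb1 63.6 ± 0.235 TPM. Bmp2, Bmp4, Nodal and Grem1 had no count. Of 32 Wnt ligands and antagonists, 9 (28.1%) were expressed, below the 36.4% of all genes and the 49.0% of protein-coding ones. Wnt7b at 133, 130.3 and 124 TPM and Wnt7a at 73.7, 65.6 and 68.3 TPM led them. The antagonists Sfrp1 and Notum were at 38.1 ± 0.913 and 37.4 ± 1.18 TPM with overlapping values, and Wnt3a, Dkk1 and Wif1 had no count.

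Of 44 collagen genes, 12 were expressed, 27.3% against 36.4% of all genes and 49.0% of protein-coding ones, and 16 had no count. Col4a1 and Col4a2, the chains of the basement membrane collagen, had 336, 315 and 288 and 255, 225 and 207 TPM, both highest in replicate 1 and lowest in replicate 3. Col18a1 was at 189 ± 15.6 TPM and Col8a1 at 149 ± 7.11 TPM. The chains of collagen I, the protein of the gel, were at 0.0887 TPM for Col1a1 and 0.00465 TPM for Col1a2. Of 46 laminins and other glycoproteins, 20 were expressed. Fn1 is given above. Among the laminin chains, Lamb3 was at 218, 199.9 and 196 TPM and Lama3 at 128 ± 8.48 TPM. Thbs1 was at 298 ± 27.1 TPM, Lama5 at 189.6 ± 17.1 TPM and Lamc1 at 176 ± 10.4 TPM. Eln, Dcn, Lum, Lama1 and Lama2 had no count.

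Proteases that cut matrix were expressed beside their inhibitors. Of 33 metalloproteinases and inhibitors, 13 (39.4%) were expressed, near the 36.4% of all genes and below the 49.0% of protein-coding ones. The inhibitor Timp2 led at 696, 661 and 662 TPM and the stromelysin Mmp3 followed at 416, 404 and 396 TPM. Mmp14, the membrane-bound collagenase, was at 178, 164 and 157 TPM, the gelatinase Mmp9 at 126 ± 6.36 TPM and the collagenase Mmp13 at 71.4 ± 2.82 TPM. Mmp9 overlapped in level with the inhibitor Timp1 at 117 ± 4.69 TPM. The gelatinase Mmp2, chosen after its values were seen, was at 0.0174 TPM, and Mmp7, Mmp8, Timp3 and Timp4 had no count. Of 35 genes of the plasminogen system, cathepsins and serpins, 27 were expressed, led by the lysosomal protease Ctsl at 1168 ± 44.2 TPM and its inhibitor Cstb at 987 ± 58.2 TPM. Plau (urokinase) and its receptor Plaur were both present, at 590.0 ± 20.4 and 358 ± 31.0 TPM, and the collagen chaperone Serpinh1 at 286 ± 11.03 TPM.

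Of 50 other secreted proteins, 31 were expressed. After Lgals1, the most abundant were Spp1, the whey acidic protein relative Wfdc2 at 1322, 1239 and 1191 TPM, the lysosomal activator Psap at 793 ± 22.1 TPM and Lgals3 (galectin-3) at 788 ± 16.4 TPM. Igfbp4, which binds insulin-like growth factors, was at 655 ± 19.2 TPM, while Igfbp2, Igfbp3 and Igfbp5 had no count. Ptgs2 (cyclooxygenase-2), listed for the prostaglandins it makes, was at 529, 506 and 449 TPM. Lox and Saa1 had no count.

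Of 312 distinct genes of transcription factors in 10 lists, 193 (61.9%) were expressed, against 36.4% of all genes and 49.0% of protein-coding ones. No count was found for 80, where 48.3% of all symbols had none. The median of the 312 was 10.0 TPM. The most abundant were those of AP-1, the dimer of Jun and Fos proteins, of whose wider family 37 of 45 were expressed. Jund was at 1757, 1706 and 1764 TPM, Junb at 1366, 1348 and 1370.1 TPM, Jun at 926 ± 32.3 TPM and Fos at 861, 836 and 839.5 TPM. Fosl1 and Atf3 overlapped at 488 ± 25.8 and 456 ± 9.43 TPM, and Fosb was at 410.3 ± 27.7 TPM. Several of these are immediate early genes and stand on the list of heat shock and immediate early genes above. Of 30 KLF, SP and EGR factors, 21 were expressed, led by Klf6 at 828 ± 17.7 TPM, Klf2 at 456 ± 9.35 TPM and Egr1 at 388, 376 and 374 TPM, with the epithelial factors Klf5 and Klf4 at 142 ± 0.214 and 137 ± 3.63 TPM.

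ETS factors share a DNA-binding domain that reads the GGAA core, and Etv4, the gene edited elsewhere in the series, belongs to them. Of 26, 16 (61.5%) were expressed, against 36.4% of all genes and 49.0% of protein-coding ones, and 8 had no count. Etv4 (chr11:101769742-101785371) was at 199.6, 190.2 and 191 TPM and at rank 876 of all genes, and its values overlapped those of Elk3 at 206, 202 and 197 TPM. The next below, Ets1 at 152, 151 and 150.3 TPM, did not overlap with Etv4. The relatives of Etv4 in the PEA3 subfamily were lower, with Etv5 at 56.2, 53.7 and 53.2 TPM and Etv1 at 29.2, 30.0 and 28.2 TPM. With the longest transcript as its length Etv1 had a mean of 43.8 TPM. Erf, a repressor of the family, was at 108 ± 2.43 TPM, Ets2 at 76.0 ± 3.53 TPM and Gabpa at 60.6 ± 1.72 TPM. Spi1, Erg, Fli1 and Spic, factors of blood and vessel cells, had no count, nor had Elf5 and Spdef.

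Other families each had a few dominant members. Sox4 led 7 expressed SOX factors of 19 at 408, 435 and 429 TPM, above Sox9 in every library, and Sox15 came next after Sox9 at 50.1 ± 4.55 TPM. Gata3 led 11 of 25 genes of the GATA, RUNX, AP-2, p53 and GRHL list, followed by Tfap2a at 75.5 ± 4.67 TPM, Runx1 at 53.7 ± 0.988 TPM (81.9 with the longest transcript) and Trp53 at 53.02 ± 3.06 TPM, of which the last pair overlapped. Myc was at 281, 261 and 254 TPM and its partner Max at 108 ± 3.40 TPM among 31 expressed of 37, with Hif1a at 109 ± 3.92 TPM and the lipid regulators Srebf2 and Srebf1 at 169 ± 9.85 and 103 ± 8.55 TPM. Mycn and Epas1 had no count. Of 21 STAT, IRF and NF-kB factors, 19 were expressed, led by Nfkb2 at 208 ± 10.8 TPM, Stat6 at 157 ± 2.91 TPM and Rela at 134 ± 6.31 TPM, with Irf4 alone at 0. Of the 32 TEAD, SMAD, TCF and Notch effectors, 24 were expressed, with the Hippo effectors Wwtr1 (TAZ) at 239.7, 240.1 and 242 TPM and Yap1 at 82.4 ± 2.19 TPM, Id3 at 226 ± 8.27 TPM and Hes1 at 149.9 ± 2.77 TPM. Foxk2, Foxp4 and Foxm1, the last a driver of mitotic genes, led 18 expressed FOX factors of 38 at 109 ± 3.95, 90.9 ± 7.81 and 80.2 ± 2.58 TPM, where Foxp4 and Foxm1 overlapped, and Foxa2 had no count.

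HOX genes, which record position along the body axis and lie in 4 clusters, reached 1 TPM in every library from the HoxA cluster only. Of 11 HoxA genes on chromosome 6, 9 were expressed. The counts of all 11 summed to 4812, 4653 and 4397 in replicates 1, 2 and 3. Hoxa5 was the highest at 207, 195 and 191 TPM, then Hoxa6 at 72.4, 64.5 and 64.9 TPM and Hoxa10 at 42.9, 43.5 and 37.7 TPM. Hoxa7, Hoxa2 and Hoxa3 lay between 15.5 and 28.3 TPM, with Hoxa3 at 26.8 TPM under the longest transcript, and Hoxa4 and Hoxa9 overlapped at 1.85 ± 0.316 and 1.65 ± 0.267 TPM. Hoxa13 was at 0.982, 0.417 and 0.997 TPM, below 1 TPM in every library, and Hoxa11 had no count. The 10 HoxB genes on chromosome 11 had no count at all. The 9 HoxC genes on chromosome 15 summed to 12, 12 and 4 counts and the 9 HoxD genes on chromosome 2 to 9, 12 and 14 counts, with no gene of either expressed.

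**Figure D5:**
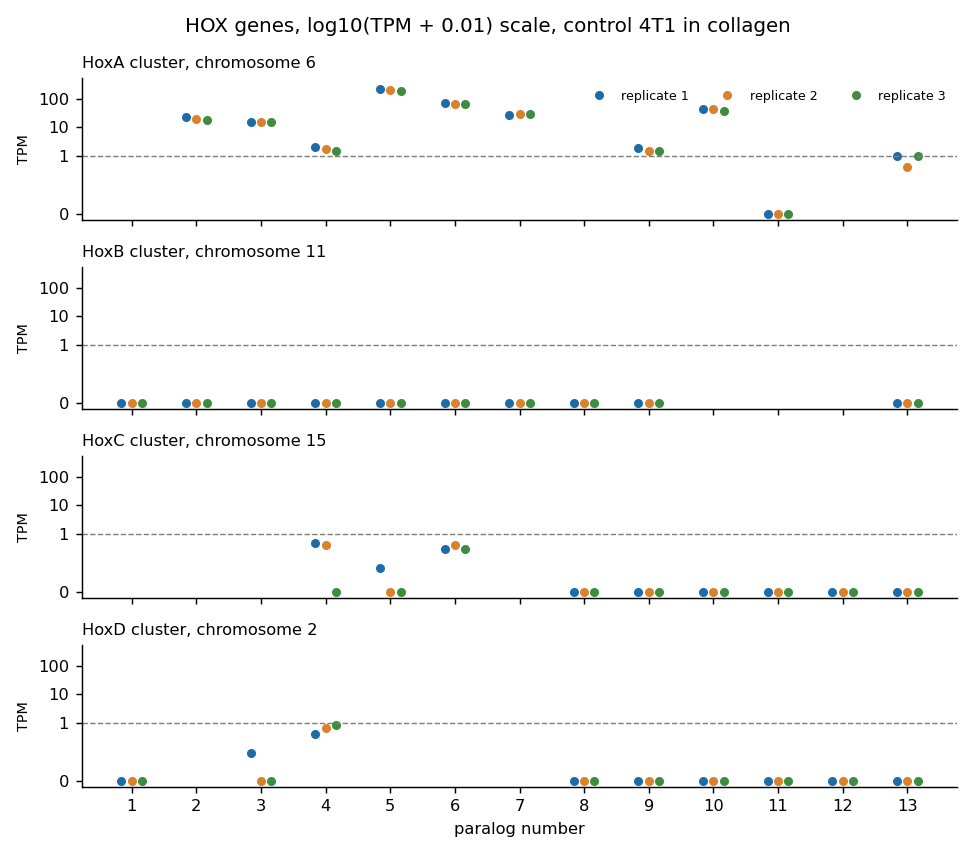
TPM of 38 of the 39 HOX genes in the 3 control libraries, on a log10(TPM + 0.01) axis, by paralog number along each of the 4 clusters, with 1 coloured point per library and a dashed line at 1 TPM. HoxA genes reach 198 TPM at Hoxa5 while every HoxB point is at 0 and no HoxC or HoxD point passes 1 TPM.

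Few genes varied between the libraries. Of 8284 genes with a proper name, not a predicted symbol, at a mean of 10 TPM or more, the median ratio of highest to lowest CPM was 1.09, 27 (0.326%) varied by more than 1.5-fold and 1 by more than 2-fold. Of the 27, 17 were highest in replicate 3, 6 in replicate 1 and 4 in replicate 2. Bc1, a short noncoding RNA, had the largest ratio, 2.54, with 9, 11 and 22 counts. Atp5k and Usmg5, both small subunits of ATP synthase, had ratios of 1.76 and 1.60, the import pore subunit Tomm7 one of 1.69 and Rps29 one of 1.69, all 4 highest in replicate 3 and lowest in replicate 1. Atp5k and Rps29 have under 1000 bases of exon, the class that lay lowest in replicate 1 and highest in replicate 3, while Tomm7 has 1125 and Usmg5 2755 bases. Arhgap27os1, Nutf2-ps1 and Snhg10 rested on fewer than 100 counts in every library. Cd68, the leukocyte marker named above, had 6.67, 9.61 and 5.76 CPM, a ratio of 1.67, and Il18 7.65, 6.16 and 4.78 CPM, a ratio of 1.60. A common biological coefficient of variation of 4.64% was estimated with edgeR over 11505 genes, which is the spread between these libraries beyond counting error.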

How the data were processed

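RNA-seq of 12 libraries was deposited as 1 table of raw counts of reads for each gene symbol, and the 3 columns of control cells without FGF were used. Per the submitters' processing notes, reads went through STAR 2.7.9a, FastQC 0.11.9 and featureCounts with R 4.1.1, and builds hg38 and mm10 are named. Not given in the sources used here: annotation release, strand setting, and the rule for reads that map several times. Near-identical and overlapping genes are therefore uncertain.

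CPM is counts scaled to a library of 1000000. TPM was computed here from union exon lengths of GENCODE vM21 models (GRCm38/mm10, 1-based coordinates): 30477 symbols matched directly, 112 through a synonym, 55 had several models and 373 had none (0.0268% of counts). A gene is expressed at 1 TPM or more in every library. A mean is given with its SD over 3 libraries. With 1 group nothing was tested. At these depths 1 count is 0.0493 to 0.0514 CPM.

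The libraries, 52 gene lists and the naming rule were chosen with earlier results of these data known. Named are the 20 most abundant genes, the fixed cell type markers, per list the 4 (receptors, secreted proteins and transcription factors 10) most abundant members and defining members without a count, Etv4, Etv1 and Etv5, and the 10 most variable genes at 10 TPM or more. Predicted genes are counted, not named. Listed symbols without a row in the table, such as Cxcl11, were not analysed here. Some list members are counted and not reported by name here.

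Alternatives were other thresholds, lengths and gene sets, each replicate left out, and scaling by edgeR 4.0.16 and DESeq2 1.42.0 (R 4.3.3, Python 3.11.15, pandas 2.3.3). The level computation was checked on simulated counts.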

Additional observations from a re-analysis of the deposited data

How the results depend on the processing

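Levels are limited by depth only near zero, since 3 counts are 0.148 to 0.154 CPM in a library. The number of genes expressed, 11165, lay between 10599 (threshold of 2 TPM) and 11735 (0.5 TPM) over the settings tried, and between 11252 and 11319 with 1 replicate left out. The share of counts in the 100 most abundant genes by count moved to 17.1% with mitochondrially encoded genes left out. Muscle markers went from 0 expressed to 1, which is Myh1, at a threshold of 0.5 TPM and also at 1 CPM without length scaling. No other count of list members moved by over 1.5 times. With the longest transcript in place of the union of exons, 317 of 390 named genes moved by at least their SD between libraries. Of the 390, 17 moved by over 1.5 times, and 16 of the 20 and 85 of the 100 most abundant genes remained. The cause is the length itself. Leaving out replicate 1, 2 or 3 moved 6, 3 and 5 named genes by over 1.5 times, all at a mean under 1 TPM, with Col1a2 and Ptprc among them. TMM and DESeq2 size factors kept every named gene within 0.99 to 1.01 of its CPM. No paired analysis was possible because a single group was described, so replicate numbers have nothing to pair with.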

Other observations

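Long noncoding RNAs were part of the same transcriptome. Malat1, a nuclear RNA of speckles, was the most abundant named one at 291, 314 and 257 TPM in replicates 1, 2 and 3, highest in replicate 2 and lowest in replicate 3. Neat1, the scaffold of paraspeckles, stood beside it on chromosome 19 and had 104, 119.8 and 93.2 TPM in the same order of replicates. Snhg6, a host gene of small nucleolar RNAs, was at 108 ± 7.85 TPM (SD, n = 3) and Tug1 at 51.1 ± 4.63 TPM. By CPM, which does not divide by length, Neat1 was at rank 179 and Malat1 at rank 207, since both are long. Libraries from polyA RNA may miss transcripts that carry no polyA tail, and what share of either RNA was missed was not tested.

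Hotairm1 (chr6:52156902-52162119), an antisense RNA of the HoxA cluster, was at 26.2, 23.3 and 25.4 TPM, near the level of Hoxa2 at 22.4, 20.05 and 18.1 TPM. The strand setting of the counting is not stated, so reads of Hotairm1 and of the HoxA genes it overlaps cannot be told apart. These genes were chosen after their values were seen.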
